A study of Mus musculus with 12 samples.

Results

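Chromatin accessibility in asynchronous Suv39h dn embryonic stem cells (ESCs) was compared with that in asynchronous wild-type (WT) ESCs through the peak lists of 4 ATAC-seq libraries, 2 per genotype, out of 12 libraries in the series. A protein-coding gene was counted as open when a peak summit lay within 1 kb of one of its annotated start sites. Regions away from start sites were divided into exonic, intronic and distal ones by the place of their leading summit. The 3351 exonic ones (3.32% of all regions) were left out of the genotype counts. Of 21938 protein-coding genes, 172 (0.784%) had such a summit in each of the Suv39h dn libraries but in none of the WT ones, and 105 (0.479%) had the opposite pattern. Of 32783 intronic regions, 901 (2.75%) were called in the Suv39h dn pair alone and 242 (0.738%) in the WT pair alone. Of 40451 distal regions, 1104 (2.73%) were called in the Suv39h dn pair alone and 302 (0.747%) in the WT pair alone. These counts follow from the calls that define them and were not tested.

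Suv39h1 and Suv39h2 are the methyltransferases that place trimethylation on lysine 9 of histone H3 (H3K9me3) at the repeats flanking mouse centromeres, where the mark is bound by HP1 proteins. The same mark, placed also by other enzymes, covers many transposon copies and clusters of zinc-finger genes. ATAC-seq uses a transposase that inserts into DNA not wrapped in nucleosomes, so fragments accumulate at active promoters and at enhancers.

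The Suv39h dn cells lack both Suv39h1 and Suv39h2 (line DN57), and the WT cells are line WT26. Both are male mouse ESC lines, grown on gelatin with leukemia inhibitory factor, and each genotype is represented by 1 line, so genotype and line cannot be told apart. Neither was treated or arrested, and nuclei of cells from cycling cultures were tagmented. The series also holds 8 libraries from mitotic ESCs and from flow-sorted mitotic chromosomes of the same lines, 4 per genotype. They are used here only to see whether a call was repeated. No label states that the libraries of a genotype came from separate cultures, so the spread between them may be technical.

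The lists held 22344 and 56897 peaks in WT against 25074 and 80602 in Suv39h dn. Most values rested on few fragments, with a median of 5 or 8 at a summit. Where the background was lowest, a fragment more or less moved the fold enrichment over background by 0.766 to 0.87. The step was smaller where the background was higher. The libraries numbered 2 were the deeper ones in each genotype. A region without a call in a shallow list was therefore not shown to be closed.

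The genes that are null in Suv39h dn cells were checked first. Suv39h1 (ENSMUSG00000039231.18, chrX:8061171-8074760) had a promoter summit in the WT library 1 alone, at a fold enrichment of 6.09 over background from 6 fragments. Suv39h2 (ENSMUSG00000026646.16, chr2:3455815-3475031) had one in the WT library 2 alone, at 6.53 from 8 fragments, and the Suv39h dn library 2 held 1 peak inside that gene. Both Suv39h dn libraries lacked a promoter summit at each gene, but each gene was also without one in a WT library. The labels do not state that the promoters were removed. At this depth the calls therefore do not check the genotype.

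The regions that kept their genotype pattern across the series are shown by sequence, because many of them hold internal repeats, some with a shared unit. Of the intronic and distal regions called in 1 genotype alone, 2005 for Suv39h dn and 544 for WT, 12 were also called in 3 or 4 of the 4 mitotic and sorted-chromosome libraries of that genotype and in none of the other genotype. For each region the leading summit with 100 bases on each side was read from the mouse genome (GRCm38, plus strand), and capitals mark the bases that belong to a 12-base word found more than once in the window. The intron of Efl1 (chr7:82771222-82771422), an intron of Mid1 (chrX:169997992-169998192), the matching place on chromosome Y (chrY:90772329-90772529) and a site 13976 bp from the start of Mfng (chr15:78753088-78753288) show the repeats, and the intron of Poglut1 (chr16:38539091-38539291) shows a window without any.
Efl1: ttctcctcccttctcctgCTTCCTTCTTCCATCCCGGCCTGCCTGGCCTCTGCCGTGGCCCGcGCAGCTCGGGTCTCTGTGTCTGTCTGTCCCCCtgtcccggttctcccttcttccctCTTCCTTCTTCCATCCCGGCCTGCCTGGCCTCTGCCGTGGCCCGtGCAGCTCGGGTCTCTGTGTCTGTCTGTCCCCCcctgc
Mid1: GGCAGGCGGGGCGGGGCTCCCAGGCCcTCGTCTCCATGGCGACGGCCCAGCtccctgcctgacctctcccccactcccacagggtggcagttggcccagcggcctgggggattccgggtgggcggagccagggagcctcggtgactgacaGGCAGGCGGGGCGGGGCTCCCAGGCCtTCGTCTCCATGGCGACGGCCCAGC
Y copy: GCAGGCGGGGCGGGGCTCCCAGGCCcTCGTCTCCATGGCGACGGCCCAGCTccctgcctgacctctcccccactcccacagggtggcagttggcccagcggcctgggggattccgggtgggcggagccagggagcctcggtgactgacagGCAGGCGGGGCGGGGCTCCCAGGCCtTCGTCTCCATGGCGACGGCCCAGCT
Mfng: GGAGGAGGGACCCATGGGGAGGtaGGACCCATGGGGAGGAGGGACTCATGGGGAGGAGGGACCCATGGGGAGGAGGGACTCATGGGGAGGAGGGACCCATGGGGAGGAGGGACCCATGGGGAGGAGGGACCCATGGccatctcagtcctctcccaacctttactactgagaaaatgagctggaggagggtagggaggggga
Poglut1: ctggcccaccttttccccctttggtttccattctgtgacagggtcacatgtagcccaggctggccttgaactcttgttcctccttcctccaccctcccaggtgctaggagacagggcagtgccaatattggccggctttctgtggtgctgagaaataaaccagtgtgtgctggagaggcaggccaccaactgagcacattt

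In the Efl1 window 152 of the bases lay in repeated words, and the copies stood 101 bp apart. The Mfng window was a tandem array with a period of 17 bp, in which a word occurred up to 6 times. Of the 12 persistent regions, 9 had at least 10% of their words repeated, and the regions in Dnaic2 and Poglut1 and 1 on chromosome Y had none. Several of the 9 are X and Y copies of the same sequence. Without chromosome Y the counts were 4 of 5 in the Suv39h dn direction and 2 of 3 in the WT direction, and on the autosomes 2 of 4. Among all intronic and distal regions the share was 3.59%, among regions called in 1 genotype alone it was 4.54% for Suv39h dn and 4.96% for WT, and among those called in all 4 libraries 4.85%. The measure was devised after these 12 regions had been seen, so their counts are a description, and what part repeat length in the 2 lines has in these calls was not tested.

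Efl1 encodes a GTPase of ribosome assembly. Its intronic region (chr7:82771260-82771469) had fold enrichments of 9.51 and 14.4 in Suv39h dn from 12 and 23 fragments, had no call in WT, and was called in 4 of 4 other Suv39h dn libraries and 0 of 4 other WT libraries. The region near Mfng, a glycosyltransferase that modifies Notch receptors, had the opposite pattern (chr15:78753129-78753209). Its fold enrichments were 7.41 and 13.3 in WT, and it was called in 3 of the other WT libraries and 0 of the other Suv39h dn libraries. The intron of Poglut1, which encodes another enzyme that glycosylates Notch (chr16:38538977-38539202), reached 5.42 and 4.61 in WT from 6 fragments each, with calls in 3 other WT libraries. Dnaic2, a dynein chain of motile cilia, held the only persistent region of chromosome 11, with fold enrichments of 4.18 and 11.5 in Suv39h dn from 4 and 14 fragments.

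The remaining 8 persistent regions lay at the ends of chromosomes X and Y. Mid1, which encodes a ubiquitin ligase, straddles the boundary of the pseudoautosomal region of the reference mouse genome, where X and Y carry the same sequence. Within 7301 bp of Mid1 introns, 7 regions were called, of which 3 belonged to the Suv39h dn pair alone and 3 to the WT pair alone. Within 8517 bp on chromosome Y, there were 9 regions, of which the Suv39h dn pair alone held 3 and the WT pair alone 1. The strongest of the persistent Mid1 regions (chrX:169997980-169998152) had 8 and 10.9 in Suv39h dn, and 8.15 and 6.25 were reached in WT at its neighbour (chrX:169992657-169992766). The Y counterpart of the first (chrY:90772298-90772481) had 8.38 and 12 in Suv39h dn, and all 162 of the distinct words in the X window were found in the Y window. For the other pairs in the Suv39h dn direction 99.4% and 100% of words were shared. Reads from these places cannot be assigned to X or Y, so the 6 regions in the Suv39h dn direction amount to at most 3 sequences. These are also near copies of each other, with 72% to 83.3% of the words of an X window found in the Y windows of the other two. Their summits also held many fragments for their fold, 23 and 52 at the strongest, so the local background there was high.

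**Figure D1:**
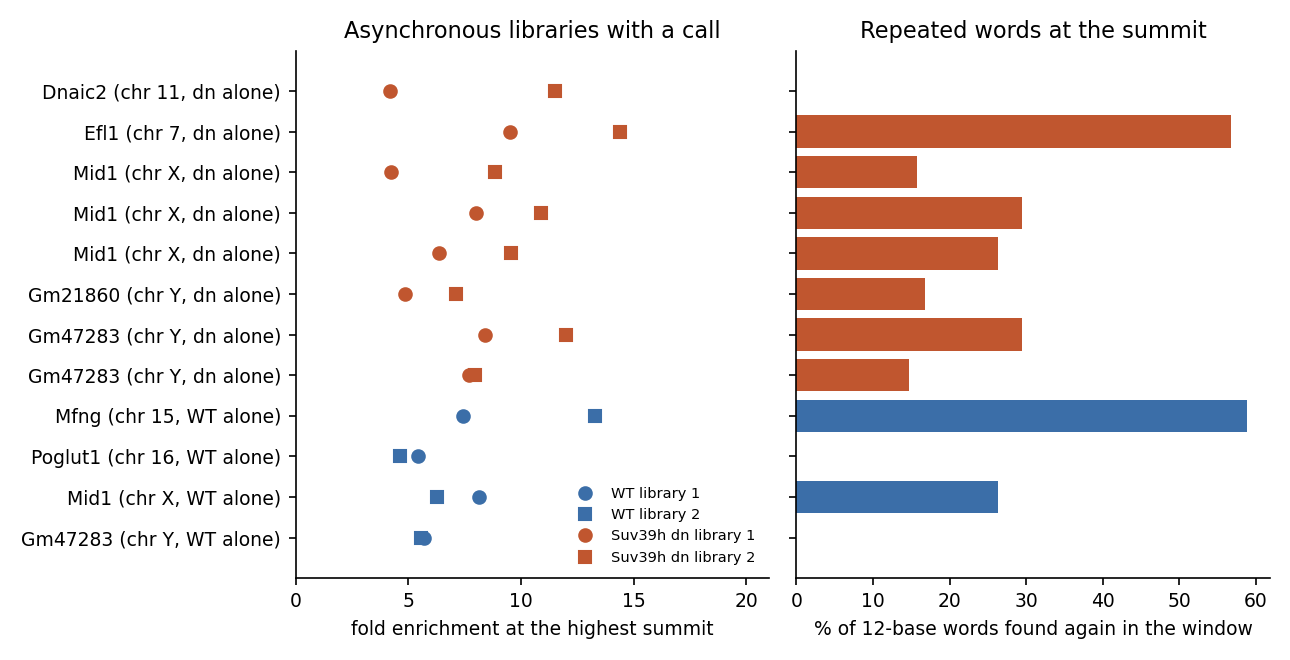
The 12 intronic or distal regions called in 1 genotype alone in asynchronous cells and in at least 3 of 4 further libraries of that genotype and none of the other, named by host or nearest gene. Left, fold enrichment at the highest summit in each library with a call (circles, library 1; squares, library 2; blue, WT; orange, Suv39h dn), where every value shown lies between 4.18 and 14.4; right, percent of the 12-base words of the summit window that occur again in it, which is at least 10% in 9 of 12.

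At promoters, the number of open genes did not separate the genotypes. It was 6897 and 11404 in the WT libraries (31.4% and 52% of genes) and 6875 and 12185 in those of Suv39h dn (31.3% and 55.5%). The log2 difference was 0.05, with p = 1 in the exact two-sided permutation test over 6 arrangements, which cannot give less than 0.333. With each list cut to its 22344 peaks of smallest p-value 6897 and 7123 genes were open in WT against 6614 and 6481 in Suv39h dn, so that the 2 WT libraries lay above the 2 Suv39h dn libraries, and the log2 difference was -0.10 (p = 0.333, the smallest possible value of the exact permutation test). Across the 4 libraries, 4895 genes (22.3%) had a promoter summit in every one and 8583 in none.

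**Figure D2:**
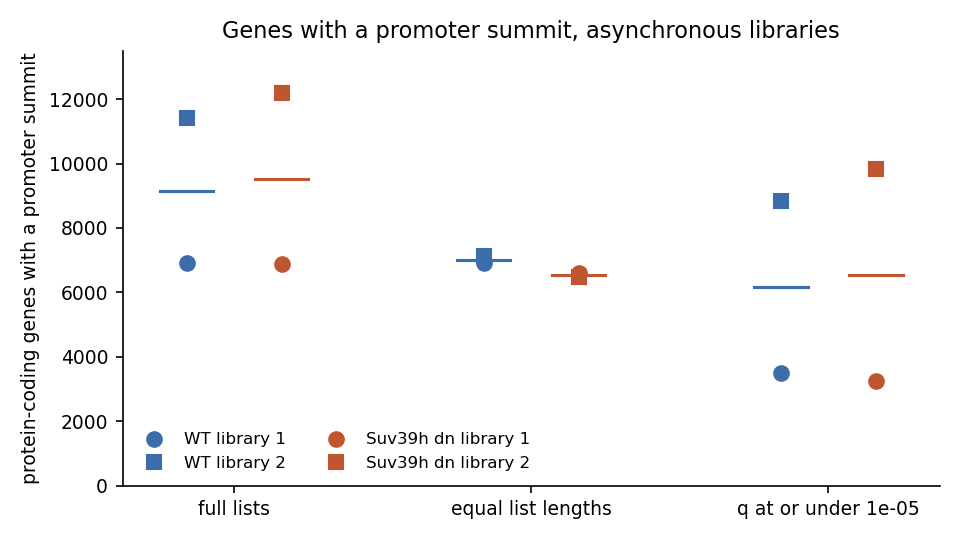
Protein-coding genes with a promoter summit in each asynchronous library (circles, library 1; squares, library 2; bars, mean of 2 libraries; blue, WT; orange, Suv39h dn) in the full lists, in lists of 22344 peaks each and at q at or under 1e-05. In the full lists the libraries of a genotype lie farther apart (6897 and 11404 in WT) than the genotype means.

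The counts of genotype-alone genes were close to those of the library pairs that mix both the genotypes and the library numbers. The pair of WT library 1 and Suv39h dn library 2 alone called 149 genes, and the pair of WT library 2 and Suv39h dn library 1 alone called 94, beside 172 and 105 for the genotype pairs. The libraries numbered 2 shared 2547 genes that those numbered 1 lacked, and 12 genes had the reverse pattern. With equal list lengths the order of the genotypes turned, to 187 genes for the Suv39h dn pair against 348 for the WT pair. The mixed pairs of unlike library numbers called 213 and 323. Of the 172 genes, 25 kept their pattern with equal lengths, and of the 105 genes 26 did.

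Away from promoters the Suv39h dn pair stood above the mixed pairs of unlike library numbers. In introns it called 901 regions alone, where these mixed pairs called 461 and 235 and the WT pair 242. At distal places it called 1104, where these mixed pairs called 564 and 249 and the WT pair 302. The Suv39h dn library 2 had the longest list, and it took part in both of the higher counts among these pairs. The libraries numbered 2, which also mix the genotypes, called far more alone, 6314 intronic and 7428 distal regions. Those numbered 1 called 30 and 43. With equal list lengths the intronic counts were 502 for Suv39h dn and 434 for WT, out of 13739 regions. The mixed pairs of unlike numbers called 356 and 345. The distal counts were 594 and 511, beside 370 and 406, out of 16413 regions. At equal length both genotype pairs thus exceeded both of these mixed pairs in introns and at distal places, while the libraries numbered 2 still shared 811 intronic and 970 distal regions of their own.

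**Figure D3:**
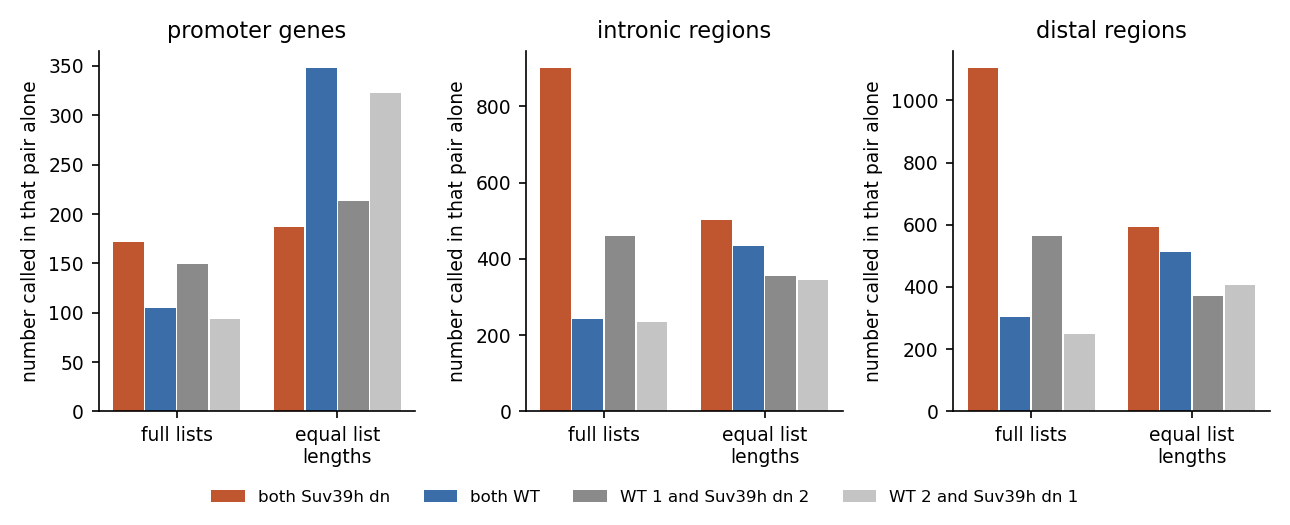
Number of promoter genes, intronic regions and distal regions called in both libraries of a pair and in neither of the other 2 (orange, both Suv39h dn; blue, both WT; dark grey, WT 1 and Suv39h dn 2; light grey, WT 2 and Suv39h dn 1), in the full lists and with equal list lengths. The 1104 distal regions of the Suv39h dn pair in the full lists become 594 at equal length, and the 105 promoter genes of the WT pair become 348.

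The promoters with the strongest calls in Suv39h dn alone belonged to genes of varied function. Trim12a, a mouse relative of the antiviral factor TRIM5, had promoter fold enrichments of 5.97 and 14.4 in Suv39h dn from 6 and 20 fragments. Its neighbour Trim12c is a close copy, so reads may be split between them. Kynu, an enzyme of tryptophan breakdown, had 5.12 and 12.7, and Afmid, which acts in the same pathway, had 5.14 and 8.71. Neither Trim12a nor Kynu had a promoter summit in any of the 8 mitotic and sorted-chromosome libraries. Sptb, a spectrin of the membrane skeleton, reached 7.99 and 8.14, and Zmynd11, a reader of histone H3.3 methylation, 4.99 and 12.3. Both had summits in 2 other Suv39h dn and 2 other WT libraries. The splicing gene Sf3a1 and its divergent neighbour Ccdc157 shared 1 summit, at 5.65 and 9.23.

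In WT alone, Col6a4, a collagen gene, had promoter fold enrichments of 7.72 and 13. Slc25a33, a mitochondrial carrier of pyrimidine nucleotides, had 8.05 and 9.26, and Nfrkb, a subunit of the INO80 remodelling complex, had 7.19 and 9.02. Poldip2, a partner of DNA polymerases, had 8.46 and 6.99. The remaining 6 of the strongest were Ap4s1, March4, Fbxo3, Pde4c, Syap1 and C1s2. Of these, Fbxo3, an F-box subunit of a ubiquitin ligase, had 5.65 and 7.55 and was called in none of the 8 further libraries, whereas Pde4c, a phosphodiesterase of cyclic AMP, had 4.92 and 8.9 and was called in 2 of each genotype.

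None of the genes called in 1 genotype alone was also called in 3 or more of the other libraries of that genotype and none of the opposite one. The nearest to it were Slc36a1 and Lipt2 in Suv39h dn and Rplp1 and Nop2 in WT, each with 3 libraries of its own genotype and 1 of the other. Slc36a1, a proton-coupled amino acid transporter, had 4.21 and 6.03, from 4 and 7 fragments. Rplp1, a protein of the ribosomal stalk, had 4.31 and 8.38, and Nop2, an RNA methyltransferase of ribosome assembly, 5.29 and 4.27. Slmap was called in all 4 further WT libraries but also in 3 of Suv39h dn, from 4.06 and 5.22 in asynchronous WT. Of the 172 genes, 38 were in none of the 8 further libraries, and of the 105 genes 21 were.

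Among the intronic regions of Suv39h dn alone, those in Adgrl3 (chr5:81653973-81654324), an adhesion receptor of neurons, and Dnah11 (chr12:117942036-117942249), a dynein of cilia, followed Efl1 in strength. The Adgrl3 region had 8.46 and 14, and the Dnah11 region 8.51 and 11.6, and neither was called in a further library. At distal places the strongest lay 708844 bp from the start of Mms22l (chr4:23787484-23787678), a gene of replication-fork repair, with fold enrichments of 10 and 17.5 in Suv39h dn and no call elsewhere in the series. In WT alone the regions in Tmc3 (chr7:83600078-83600195) with 6.05 and 12.3 and in Fmn2 (chr1:174728817-174729140) with 6.66 and 9 likewise had no further call. These strong calls were therefore mostly seen in 1 preparation.

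A tandem array was also found at a distal region that all 4 further WT libraries called, together with some of Suv39h dn. It lies 3888 bp from the start of Tmem125 and is given with its window (chr4:118547832-118548032, GRCm38, plus strand, capitals as above).
Tmem125: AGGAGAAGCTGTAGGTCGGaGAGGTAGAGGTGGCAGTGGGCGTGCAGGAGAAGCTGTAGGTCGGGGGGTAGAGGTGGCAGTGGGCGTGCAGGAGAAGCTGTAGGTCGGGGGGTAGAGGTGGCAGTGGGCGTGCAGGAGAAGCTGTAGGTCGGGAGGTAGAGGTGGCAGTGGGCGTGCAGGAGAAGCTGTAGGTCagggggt

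The Tmem125 window repeats with a period of 44 bp. Its fold enrichments were 8.06 and 8.13 in WT, with calls in 4 other WT and 2 other Suv39h dn libraries. The absence of a call in asynchronous Suv39h dn was thus not repeated in all of the other preparations.

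Whether calls were repeated in the same genotype was then compared across the 8 libraries that had no part in choosing the members. In each library the percent of WT-alone items called was subtracted from the percent of Suv39h dn-alone items called, and the Suv39h dn libraries were compared with the WT libraries within each preparation. For intronic regions the difference was 4.3 percentage points higher in Suv39h dn libraries (two-sided exact permutation test with 36 arrangements, p = 0.0556; adjusted p = 0.167 over the 3 classes). It was 5.85 points in mitotic ESCs and 2.76 points in sorted chromosomes, and in each preparation both Suv39h dn libraries lay above both WT libraries. This p is the smallest that the design can give. For distal regions the difference was 2.31 points (p = 0.111, exact permutation test; adjusted p = 0.167), and for promoter genes it was -1.58 points (p = 0.833, exact permutation test; adjusted p = 0.833), with opposite signs in the 2 preparations. None passed the threshold. The shares themselves were small, for the Suv39h dn-alone intronic regions 0.666% and 4.88% in the mitotic Suv39h dn libraries against 0.888% and 2.89% in the mitotic WT libraries. Over all intronic regions they were 0.933% and 8% against 3.15% and 8.32%. These members were thus called less often than intronic regions in general in each of the 4 mitotic libraries. In sorted chromosomes the members were called at 5.77% and 5.11% in the Suv39h dn libraries, above the 4.62% and 3.82% of all intronic regions. In the WT libraries of sorted chromosomes they were at 3.66% and 4.99%, below the 3.78% and 5.41% of all. The WT-alone intronic regions, 242 in number, were called at 4.55% and 9.92% in mitotic WT against 2.48% and 2.07% in mitotic Suv39h dn libraries. In sorted chromosomes their shares were 4.13% and 4.96% against 3.72% and 2.07%. In each preparation the WT-alone regions thus made the larger part of the intronic difference. Of the 901 Suv39h dn-alone intronic regions, 751 were called in none of the 8 libraries, and of the 1104 distal ones 858.

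**Figure D4:**
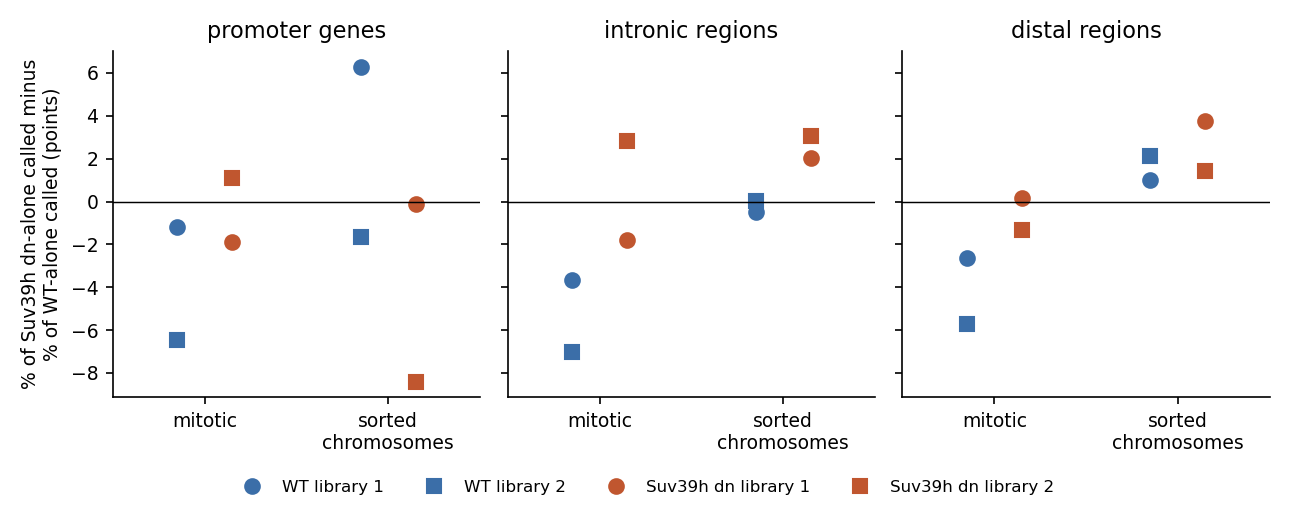
Percent of Suv39h dn-alone items called minus percent of WT-alone items called, in percentage points, in each mitotic and sorted-chromosome library (circles, library 1; squares, library 2; blue, WT; orange, Suv39h dn) for promoter genes, intronic regions and distal regions. For intronic regions both Suv39h dn libraries lie above both WT libraries in each preparation, at -1.81 and 2.82 against -3.66 and -7.03 in mitotic ESCs and at 2.05 and 3.04 against -0.47 and 0.0358 in sorted chromosomes.

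Regions called in all 4 asynchronous libraries allowed a test of the level itself. There were 10432 of them, 4746 at promoters, 226 in exons, 2437 in introns and 3023 distal, and limma was run on log2 fold enrichment. In Suv39h dn 0 regions (0%) were higher and 1 (0.00959%) was lower at an adjusted p under 0.05, and 363 (3.48%) had an unadjusted p under 0.05. The median absolute log2 difference was 0.20, with a median standard error of 0.31. Calling in all 4 lists selects against large differences.

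The region that fell lies 53160 bp from the start of Frmd4a (chr2:3964500-3964615), a gene of epithelial polarity. Its fold enrichments were 16.1 and 30.6 in WT, from 19 and 43 fragments, against 6.83 and 10.7 in Suv39h dn, from 7 and 13 fragments. The genotypes did not overlap, and the log2 difference was -1.45 ± 0.28 (SE; limma adjusted p = 0.0103). It was not called with equal list lengths (adjusted p = 0.106), without the mean-variance trend (adjusted p = 0.999) or without any 1 of the 4 libraries (adjusted p from 0.0916 to 0.442), the direction being the same in each. It was called at q at or under 1e-05 (adjusted p = 0.000401), with quantile normalization (adjusted p = 0.00901) and among regions above the median level (adjusted p = 0.0229). Among the other libraries it had a peak in 4 of 4 WT and 2 of 4 Suv39h dn. Its window (chr2:3964457-3964657) holds 3 copies of a unit with a period of 42 bp, and the window of a distal region with higher values in Suv39h dn, 18789 bp from Cartpt (chr13:99881752-99881952), holds 5 copies of a unit of 28 bp.
Frmd4a: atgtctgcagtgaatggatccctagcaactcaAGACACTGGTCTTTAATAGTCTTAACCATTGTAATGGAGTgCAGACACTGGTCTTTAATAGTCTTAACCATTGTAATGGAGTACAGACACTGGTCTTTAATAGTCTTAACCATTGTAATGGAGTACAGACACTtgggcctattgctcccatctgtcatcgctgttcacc
Cartpt: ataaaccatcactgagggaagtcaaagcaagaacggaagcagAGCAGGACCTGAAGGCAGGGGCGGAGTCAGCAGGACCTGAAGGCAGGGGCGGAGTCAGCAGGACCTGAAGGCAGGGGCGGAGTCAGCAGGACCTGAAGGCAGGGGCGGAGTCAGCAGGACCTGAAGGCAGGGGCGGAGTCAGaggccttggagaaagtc

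The Cartpt region had 5.2 and 6.87 in WT against 10.7 and 16.8 in Suv39h dn, a log2 difference of 1.09 ± 0.29 (SE; limma adjusted p = 0.629). Cartpt encodes a neuropeptide. The smallest unadjusted p among regions with higher values belonged to the promoter of Trim12c, with 3.48 and 14.2 in WT against 12.8 and 19.8 in Suv39h dn (log2 difference 1.10 ± 0.29, SE; limma adjusted p = 0.629), the values of the genotypes overlapping. The promoters of Cfap161, a gene of cilia, at 4.34 and 9.67 against 9.64 and 19.9, and of Pyurf, at 4.2 and 10.1 against 9.06 and 20, had higher mean values in Suv39h dn, with overlap between the genotypes (adjusted p = 0.698 and 0.85, limma). A distal region of chromosome 11, 804104 bp from its nearest start, that of Vwc2, had 4.35 and 4.59 against 10.2 and 12 without overlap (log2 difference 1.23, limma adjusted p = 0.698). After Frmd4a, the smallest p among regions with lower values belonged to an intronic region of Dclk2, a microtubule-binding kinase, at 10.9 and 14.7 in WT against 4.48 and 8.75 in Suv39h dn (adjusted p = 0.629, limma). Apart from the region near Frmd4a, none of these passed the test. Of the 20 regions with the smallest p, 10 in each direction, 16 were intronic or distal, and 4 of these had at least 10% of words repeated, beside the 4.85% of such regions called in all 4 libraries.

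Gene groups held few promoters called in 1 genotype alone, where the shares over all genes were 0.784% for Suv39h dn and 0.479% for WT. Of 28 pluripotency factors, 14 and 20 had a promoter summit in WT against 13 and 22 in Suv39h dn. Lin28a, an RNA-binding protein that blocks let-7 maturation, was the only one in a genotype alone, at 5.65 and 6.28 in Suv39h dn. Lin28a did not keep its pattern with equal list lengths, and it was called in 2 further libraries of each genotype. Esrrb had a promoter summit in all 4 libraries, at 7.99 and 9.58 in WT against 7.35 and 10.1 in Suv39h dn, and Sox2 did so too, at 5.7 and 5.93 against 3.55 and 5.99. Pou5f1 lacked one in the WT library 1, and Klf4 had none. The defining ESC promoters were thus called in part in each line. No marker of mesoderm, neural cells or fibroblasts was called in a genotype alone, and in each of these 3 lists the Suv39h dn counts overlapped those of WT. Of 16 primitive endoderm markers, 6 and 11 had a promoter summit in WT against 5 and 13 in Suv39h dn. Gata6 was called in Suv39h dn alone, at 4.18 and 5.46 from 4 and 7 fragments. Of 16 trophectoderm markers, the counts were 3 and 5 against 3 and 9. Gata3 was called in Suv39h dn alone, at 3.4 and 9.69 from 3 and 13 fragments. Neither gene kept its pattern with equal list lengths. Among the further libraries Gata6 was called in 1 of Suv39h dn and 2 of WT, and Gata3 in 2 of each.

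Genes of the H3K9 methylation and HP1 list were open in equal numbers. Of 24 genes, 15 and 19 had a promoter summit in WT against 15 and 19 in Suv39h dn, and 0 were called in a genotype alone. Cbx5, which encodes HP1 alpha, was at 7.53 and 12.6 in WT against 11.6 and 13.4 in Suv39h dn. Trim28, the corepressor recruited by zinc-finger proteins, was at 6.22 and 6.82 against 4.1 and 8.5, overlapping between genotypes. Among 31 polycomb genes, Kdm2b, which brings a polycomb complex to CpG islands, was in WT alone at 3.41 and 6.6. Among 18 DNA methylation genes, Dnmt3l, the cofactor of the de novo methyltransferases, was in WT alone at 3.83 and 5.21. Neither Kdm2b nor Dnmt3l kept its pattern with equal list lengths. Among the further libraries Kdm2b was called in 3 of WT and 2 of Suv39h dn, and Dnmt3l in 2 of WT and 1 of Suv39h dn.

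Of 365 genes named Zfp, a family whose clusters carry H3K9me3, 189 and 291 had a promoter summit in WT against 202 and 310 in Suv39h dn. In Suv39h dn alone there were 5 (1.37%), Zfp251, Zfp318, Zfp383, Zfp455 and Zfp940, beside 0.784% of all genes, and for WT there were 0, beside 0.479%. With equal list lengths the counts were 6 and 9. Of 1093 olfactory receptor genes, 7 and 16 were open in WT against 7 and 39 in Suv39h dn, with Olfr38 in Suv39h dn alone. Of 26 two-cell-like genes, 2 and 3 were open in WT against 2 and 5 in Suv39h dn, and 0 were called in a genotype alone, and no Zscan4 gene of the list had a promoter summit in any library. Hoxa7 was the only one of 39 Hox genes in a genotype alone, in WT, Rpl17 the only one of 79 ribosomal protein genes, in Suv39h dn, and Pcdhb1 the only one of 57 clustered protocadherins, in Suv39h dn. Of 32 germline genes and 67 replication-dependent histone genes, 0 were called in a genotype alone.

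The distal regions of the 2 genotypes differed in their surroundings. The median distance to the nearest protein-coding start was 59081 bp for the Suv39h dn-alone regions and 32161 bp for the WT-alone regions, beside 51825 bp for all distal regions and 38450 bp for those shared by the libraries numbered 2. With equal list lengths it was 62458 and 30127 bp, beside 44319 bp. The median share of the summit window that was soft-masked as repeat in the genome was 33.8% for Suv39h dn and 15.2% for WT, beside 27.9% of all distal windows, and with equal list lengths 21.9%, 13.4% and 19.4%. GC content was near 50% in every set. Regions from 4 libraries with unequal depth enter these sets, and the values are a description.

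Short motifs were counted in the same windows on both strands, as the letters alone. The Klf motif GGGNGTGG, of the Krüppel-like factors of ESCs, was in 22.7% of the 242 WT-alone and 10.7% of the 901 Suv39h dn-alone intronic windows, beside 10.7% of all intronic windows, and with equal list lengths in 17.1% and 10.2%, beside 11.4%. At distal places with equal list lengths the POU octamer ATGCNAAT, of Oct4 and its relatives, was in 11% of WT-alone and 6.4% of Suv39h dn-alone windows, beside 7.49%. The Esrrb motif TNAAGGTCA, of the orphan receptor Esrrb, was in 13 of 511 WT-alone (2.54%) and 4 of 594 Suv39h dn-alone windows (0.673%), beside 1.44%. In the full lists the distal shares for WT and Suv39h dn were 7.62% and 5.71% for the POU octamer and 4.3% and 0.634% for the Esrrb motif. The CTCF motif CNAGGGGGC was in 4.31% of WT-alone and 3.54% of Suv39h dn-alone distal windows with equal list lengths, beside 2.58%, but in 2.32% and 2.45% in the full lists, beside 2.42%. The Sox motif ACAAAGG had no order of the genotypes that held in introns and at distal places. The Tead motif GGAATG had none with equal list lengths. In the full lists it was in 13.6% of WT-alone and 12.7% of Suv39h dn-alone intronic windows. At distal places the full-list shares were 14.9% and 14.3%. A match is a run of letters and not a bound site.

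Chromosome 11 held more than its share of what was called in Suv39h dn alone. It carried 5.79% of intronic and distal regions, 9.08% of those called in Suv39h dn alone (182 regions) and 4.04% of those called in WT alone (22 regions). With equal list lengths the shares were 8.49% and 3.6%, beside 6.12%. It also held 27 of the 172 promoter genes in Suv39h dn alone, Sf3a1, Ccdc157, Afmid and Slc36a1 among them, and 3 of the 105 in WT alone. These are 15.7% and 2.86%, beside 7.47% of all protein-coding genes and 7.73% of those open in at least 1 library. Counted in windows of 1 Mb, the highest numbers of Suv39h dn-alone regions were on chromosomes 11 and Y, 6 of 58 regions in chr11:3000001-4000000 and 6 of 59 in chrY:90000001-91000000. No window held more than 3 WT-alone regions. The Suv39h dn-alone set was the larger, 2005 intronic and distal regions against 544, so these maxima cannot be compared directly.

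The background at chromosome 11 peaks was also compared between the libraries. The median background recovered at its peaks, as a ratio to that at all other peaks, was 1.18 and 1.08 in WT against 1.41 and 1.16 in Suv39h dn asynchronous libraries. It was 1.06 and 1.06 against 1.31 and 1.20 in mitotic ESCs and 1.36 and 1.46 against 1.54 and 1.48 in sorted chromosomes. In mitotic ESCs and in sorted chromosomes both Suv39h dn libraries lay above both WT libraries, and in asynchronous ESCs the genotypes overlapped. In regions called in all 4 asynchronous libraries the median log2 difference on chromosome 11 was 0.06. The chromosome was chosen with its values known, and whether the lines differ in its copy number was not tested. Without chromosome 11 the Suv39h dn-alone counts were 145 genes, 811 intronic and 1012 distal regions, and the WT-alone counts 102, 234 and 288.

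**Figure D5:**
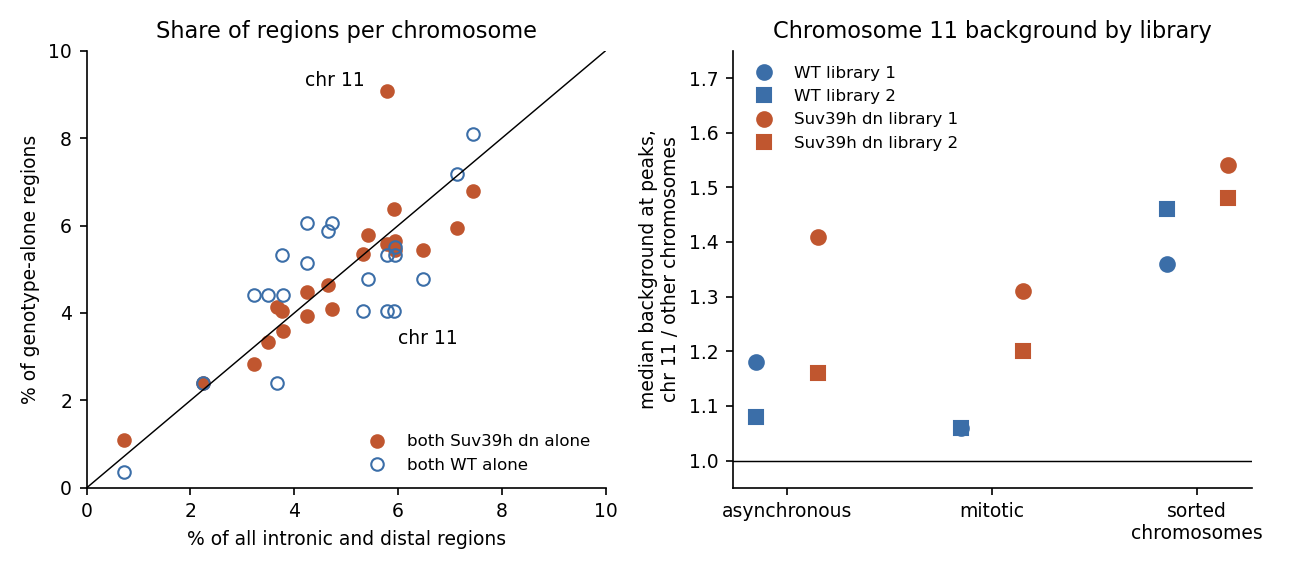
Left, percent of the genotype-alone intronic and distal regions on each chromosome against the percent of all such regions there (filled orange, Suv39h dn alone; open blue, WT alone; line, equal shares), with chromosome 11 at 9.08% and 4.04% beside 5.79%. Right, median background at chromosome 11 peaks divided by that at other peaks in each library (circles, library 1; squares, library 2; blue, WT; orange, Suv39h dn), from 1.06 to 1.54.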

How the data were processed

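ATAC-seq was deposited as 1 MACS2 narrowPeak list per library. Per the labels and the study's methods, reads were trimmed with Trim Galore (0.4.4), aligned to mm10 (GRCm38) with Bowtie2 (2.2.9), and peaks were called by the authors on paired fragments under 100 bp. The deposited lists give a score, the fold enrichment at the summit over local background, and -log10 p and q values (p-value and q-value), which the authors' caller cut at q 0.05. They hold no read counts. Whole fragments and background at each summit were recovered here from the deposited fold and p-value, for 100% of peaks with -log10 p up to 60. Which further filters, such as a mapping quality or blacklist filter, bear on repeats was not used here.

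Starts came from GENCODE M21. Overlapping or adjoining peaks of the 4 lists were joined, and a region with no summit within 1 kb of any start was exonic, intronic or distal. Equal list lengths keep the 22344 peaks of smallest p-value per asynchronous list. limma (3.58.1, R 4.3.3) was fitted on median-centred log2 fold with a trend, with Benjamini-Hochberg adjustment; the study's model on read counts could not be used. Summit windows take 100 bases on each side. Exact permutation tests were two-sided (Python 3.11.15, scipy 1.17.1). Scripts were tested on simulated data. With 2 libraries per genotype, no exact test can pass 0.05. Named genes were the 10 strongest promoters kept at equal length (5 regions per class), the 5 most often called in further libraries of their genotype, list members, and the 10 smallest limma p per direction; genes named Gm, Rik or clones were skipped, except at the persistent regions. The members and lists were chosen with earlier results of these data known, and the repeated-word measure and chromosome 11 after their values were seen. Some items that the rule for named genes gives are not reported here.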

Additional observations from a re-analysis of the deposited data

How the results depend on the processing

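The number of open promoters gave a log2 difference of 0.05 that turned to -0.10 with equal list lengths and ran from -0.37 to 0.46 with 1 library left out. At q at or under 1e-05 the genotype-alone counts for Suv39h dn and WT were 79 and 40 promoter genes, 198 and 49 intronic and 246 and 61 distal regions. Equal list lengths gave 348 WT-alone genes, 502 and 434 intronic and 594 and 511 distal regions. With 1 library left out, so that a library stood for its genotype, the Suv39h dn counts ran from 226 to 1676 genes, 1023 to 12195 intronic and 1269 to 16603 distal regions, and the WT counts from 136 to 1637, 284 to 4602 and 354 to 5145. The lowest values came without the library 1 of the opposite genotype, and the other 3 omissions moved each count by over 1.5 times. The repeat in further libraries kept its sign for intronic (3.15 to 5.46 points) and distal regions (1.54 to 3.08 points) whichever library was left out, and for promoter genes ran from -3.66 to 0.491 points, above 0 without the sorted-chromosome WT library 1 (0.404) or Suv39h dn library 2 (0.491). At q at or under 1e-05 the distal value was 7.15 points (p = 0.0556, exact permutation test) and the intronic one 6.1 (p = 0.111, exact permutation test), whereas cutting the lists to equal length gave 1.72 and 2.48. For promoter genes these settings gave -0.617 and -0.182 points. The limma counts of 0 higher and 1 lower became 0 lower with equal list lengths and with no trend, and 0 to 2 higher and 0 lower with 1 library left out, where the lone library is assumed to vary like the others. With the number of the library as a replicate block, limma called 2 higher and 3 lower, and the log2 difference of open promoters stayed 0.05. The numbers are not stated to mark a shared batch. Same-numbered deviations correlated at r = 0.26 across the 10432 shared regions, and library 2 was the deeper in 6 of 6 groups. Leaving out chromosome 11, chosen after seeing the data, and the remaining alternatives (500 bp, 1 start per gene, 50% of the region called) moved no count by 1.5 times. Depth limits every absence of a call.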
